A study of Xenopus tropicalis with 12 samples.

Results

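The 7 complex I genes of mitochondrial DNA (ND1, ND2, ND3, ND4L, ND4, ND5 and ND6) were followed across 12 RNA-seq libraries of tadpole intestine from the frog Xenopus tropicalis. They are 7 of 19921 genes in the count table, chosen by position: from the start of ND1 onward, the mitochondrial rows of at least 150 bases were taken in order of start. That rule gives 13 protein-coding genes, and the start, end and length of all 13 match those of the named genes in the reference table of assembly UCB_Xtro_10.0. All 7 complex I genes passed the filter on low counts, as did the 6 others, which encode cytochrome c oxidase subunits (COX1, COX2, COX3), ATP synthase subunits (ATP6, ATP8) and cytochrome b of complex III (CYTB).

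Wild-type and TRα(-/-) tadpoles of the same parents, the latter lacking thyroid hormone receptor alpha, were left untreated or given 10 nM T3, the active thyroid hormone, for 18 h, and their stages are labelled 52 to 54. Each of the 4 groups is 1 RNA pool merged from several tadpoles and sequenced as 3 technical libraries, so errors and p-values below measure how far libraries of 1 pool vary, and not how far animals vary. The groups are named by the column labels: contWT (wild type, no T3), contHomo (TRα(-/-), no T3), T3WT (wild type, T3) and T3Homo (TRα(-/-), T3). The sample titles and treatment labels instead make contHomo the wild type with T3 and T3WT the TRα(-/-) without T3. Only contWT and T3Homo carry the same identity in both sources. Nuclear identifiers were not paired with gene symbols, so thra, markers of the intestine and the nuclear subunits of complex I were not analysed here.

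Complex I, the NADH:ubiquinone oxidoreductase, is the entry point of electrons from NADH into the respiratory chain and pumps protons across the inner mitochondrial membrane. Its mitochondrially encoded subunits form the core of the membrane arm, while the remaining subunits come from nuclear genes. In vertebrates the mitochondrial genome is transcribed as long precursors, most of whose messenger RNAs are released by excision of the tRNAs between them. Thyroid hormone is a known regulator of mitochondrial content and respiration in vertebrate tissues, and it drives the remodelling of the tadpole intestine at metamorphosis.

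Library totals ranged from 34322099 to 44755390 counts. The 13 mitochondrial protein genes held between 1.70% and 3.10% of the counts of a library, and the 7 complex I genes between 0.168% and 0.323%. Levels are given as CPM, read counts divided by the TMM-scaled library size and multiplied by 1e6, with errors as SD over n = 3 libraries. TMM factors were 1.21 in T3WT, 0.921 in contWT, 0.931 in contHomo and 0.962 in T3Homo. Differences were tested with edgeR over all 13172 genes that passed the filter, and a gene was called at an adjusted p below 0.05. Many genes reached that threshold in every comparison, so the share of all genes called is given beside each count. Comparisons with contWT share its 3 libraries, and those with T3Homo share its own. In bulk RNA a smaller number of mitochondria-rich cells and less of an RNA per cell cannot be told apart.

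On the mitochondrial genome as numbered in the deposited table, all but ND6 lie on the plus strand. ND1, of 968 bases, ends at 3759, and ND2 spans 3969 to 5004, ND3 9569 to 9911, ND4L 9981 to 10277, ND4 10271 to 11648 and ND5 11859 to 13676. ND6, from 13668 to 14186, is the 1 gene of the 13 on the minus strand. ND4L and ND4 overlap by 7 bases, and ND5 and ND6 by 9 bases on opposite strands. The strand setting of the counting is not given in the sources used here, so reads of ND6 and reads antisense to it cannot be told apart.

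Per length of gene, ND1 was the most abundant complex I gene in all 4 groups and ND6 the least. ND1, the subunit at the junction of the membrane and peripheral arms, stood at 1116 ± 7.56 CPM per kb in contWT and 864 ± 9.84 CPM per kb in T3Homo. ND6, a small membrane-arm subunit, stood at 7.81 ± 0.333 CPM per kb in contWT and 5.84 ± 0.289 CPM per kb in T3Homo. The per-length ratio of ND1 to ND6 was 143 ± 5.29 in contWT, 130 ± 18.5 for contHomo, 143 ± 10.99 for T3WT and 148 ± 8.38 in T3Homo, with overlapping libraries. Levels of different genes were compared without a correction for how RNA was selected for the libraries, and its part in this ratio was not tested. Averaged over the 12 libraries, ND1 ranked at place 157 of the 13172 genes in CPM per kb, and ND6 at place 5011. ND3, ND4, ND2, ND4L and ND5 held places 280, 320, 331, 515 and 595.

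Between these extremes the order was nearly constant. In contWT, ND3 (418 ± 14.2 CPM per kb) was above ND2 (333 ± 12.7), ND4 (313 ± 12.1), ND4L (165 ± 4.79) and ND5 (134 ± 3.17). ND2 and ND4 overlapped there, as they did in contHomo (274 ± 7.14 and 265 ± 6.32 CPM per kb) and T3Homo (240 ± 4.30 and 240 ± 7.23 CPM per kb). T3WT was the 1 group in which ND4 (389 ± 8.95 CPM per kb) lay above ND2 (313 ± 10.9) without overlap, and ND4 there overlapped ND3 (411 ± 14.9). Every complex I gene lay below COX1, whose level per kb was 4.03 ± 0.0631 times that of ND1 in contWT and 3.81 ± 0.0190 to 3.995 ± 0.0968 times in the other groups.

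**Figure D1:**
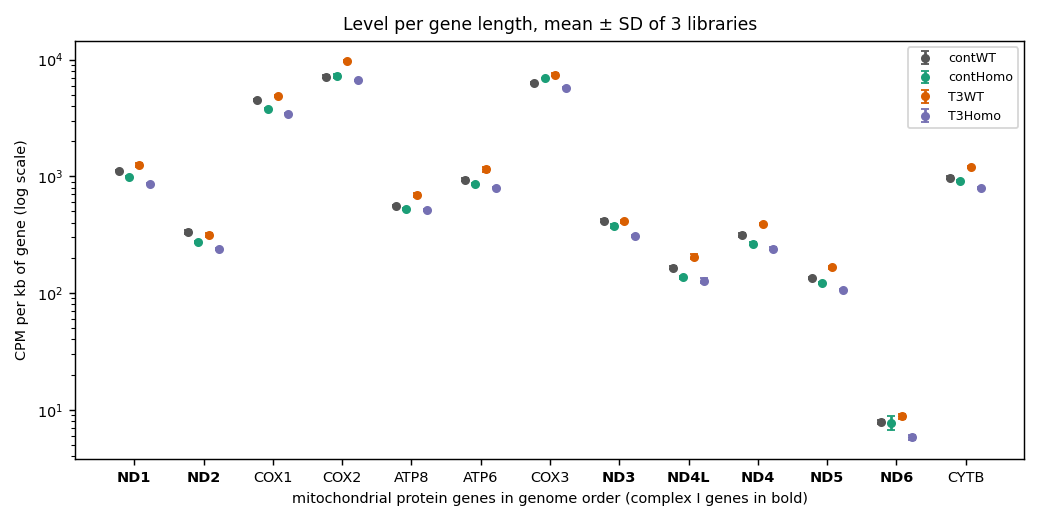
Level of each mitochondrial protein gene per kb of gene length (CPM per kb, log scale) in genome order, as mean and SD of the 3 libraries of each group, with complex I genes in bold. ND1 leads the complex I genes at 864 to 1253 CPM per kb, and ND6 lies far below the rest at 5.84 to 8.80 CPM per kb.

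The levels in single libraries showed 2 patterns, best seen in the plot of CPM by library. ND1 was at 1086, 1072 and 1083 CPM in the contWT libraries, at 962, 960 and 969 in contHomo, at 1179, 1256 and 1205 for T3WT and at 846, 835 and 827 in T3Homo. Its 4 groups did not overlap, with T3WT highest and T3Homo lowest. ND4, an antiporter-like proton-pumping subunit, was at 421, 422 and 451 CPM for contWT, at 369, 355 and 371 for contHomo, at 526, 550 and 532 for T3WT and at 321, 330 and 341 in T3Homo. ND5, the antiporter-like subunit at the far end of the membrane arm, was at 240, 240 and 250 CPM for contWT, at 220, 222 and 228 for contHomo, at 296, 311 and 299 for T3WT and at 193, 193 and 198 in T3Homo. ND4 and ND5 had the group order of ND1 with TMM scaling, again without overlap. Between 2 groups, libraries did not overlap for 57.6% to 78.9% of all genes in the comparisons below. The share of all genes without overlap among all 4 groups was not counted.

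ND4L, a small subunit whose gene shares a messenger RNA with ND4 in mammals, was at 50.2, 49.3 and 47.4 CPM for contWT, at 42.0, 39.4 and 40.04 for contHomo, at 57.7, 64.2 and 61.2 for T3WT and at 37.3, 36.3 and 39.8 in T3Homo. It followed the same order, but its contHomo and T3Homo libraries overlapped. ND6 was at 4.16, 3.85 and 4.15 CPM for contWT, at 4.12, 4.51 and 3.46 for contHomo, at 4.82, 4.40 and 4.48 for T3WT and at 2.97, 2.92 and 3.20 in T3Homo. These values rest on 121 to 205 counts per library. Its contHomo libraries overlapped those of contWT and of T3WT, and its T3Homo libraries were below all others.

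ND2 and ND3 behaved differently with TMM scaling. ND2, the third antiporter-like subunit, was at 344, 333 and 359 CPM for contWT, at 278, 281 and 292 for contHomo, at 313, 336 and 324 for T3WT and at 243, 251 and 251 in T3Homo. ND3, a small subunit near the junction of the arms, was at 140, 141 and 149 CPM for contWT, at 133, 126 and 124 for contHomo, at 136, 146 and 141 for T3WT and at 105, 105 and 109 in T3Homo. For these genes the contWT and T3WT libraries overlapped in CPM, and contHomo and then T3Homo lay below them. As a share of all library counts, which takes no TMM factor, both genes were highest in T3WT, without overlap. ND2 held 0.0393 ± 0.00132% there and 0.0318 ± 0.000978% in contWT. ND3 held 0.0171 ± 0.000602% there and 0.0132 ± 0.000336% in contWT.

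**Figure D2:**
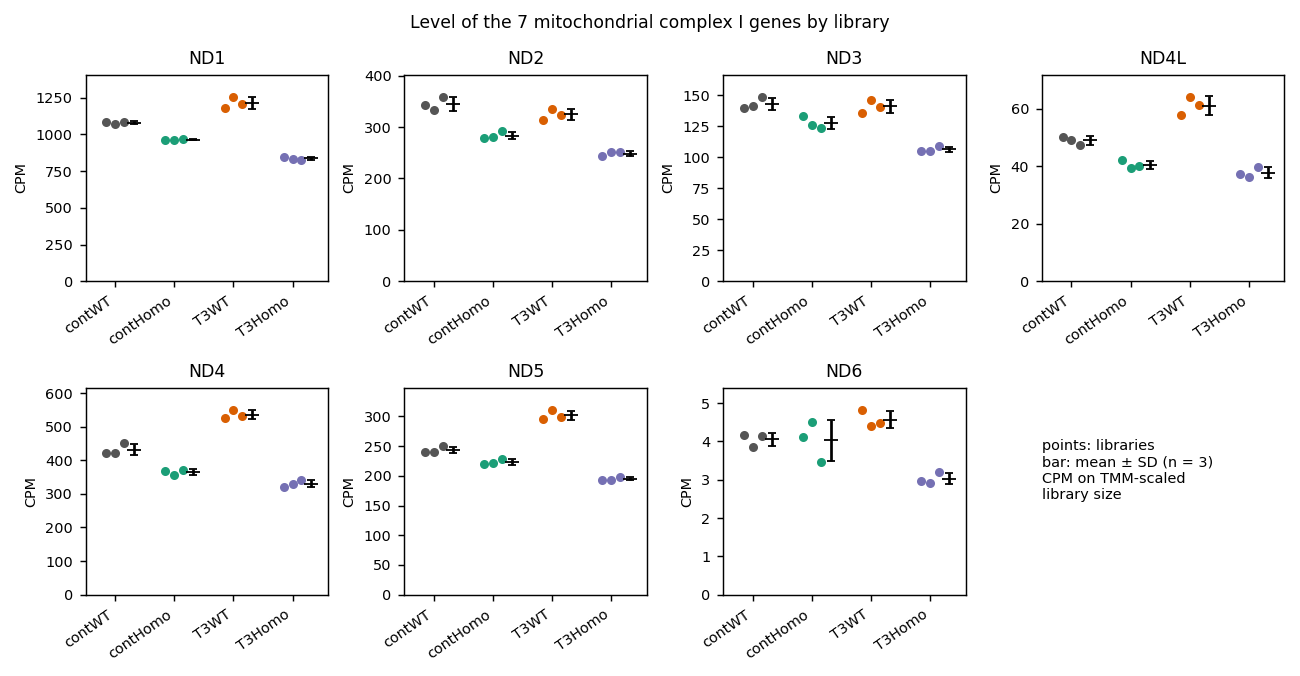
CPM (TMM-scaled, axis from 0) of each complex I gene in the 12 libraries, with mean and SD of n = 3 beside each group. T3Homo has the lowest mean for all 7 genes, at 836 CPM for ND1 and 3.03 CPM for ND6. T3WT has the highest mean for all but ND2 and ND3, and its ND6 libraries overlap those of contHomo.

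T3Homo against contWT compares TRα(-/-) tadpoles given T3 with untreated wild type, and is the comparison on which all labels agree. All 7 complex I genes fell, ND2 most (by 28.1%) and ND5 least, where 34.2% of all genes were called lower. On the log2 scale (± SE, edgeR) ND2 changed by -0.48 ± 0.020 (adjusted p = 1.70e-39), ND4 by -0.38 ± 0.019 (adjusted p = 6.84e-34) and ND5 by -0.32 ± 0.019 (adjusted p = 3.28e-28). ND1 fell by 22.6%, ND3 by 25.8%, ND4L by 22.9% and ND6 by 25.3%. The libraries of the groups did not overlap for any of the 7, which held for 70.2% of all genes. The median log2 fold change was -0.38 over the 7, where that of the 6 other mitochondrial protein genes was -0.18 and that of all genes 0.00056. The 6 others fell too, by 7.02% (COX2) to 23.2% (COX1). None of the 7 reached a 2-fold change, which 11.2% of all genes did.

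Scaling each library to the summed counts of those 6 other genes, which are mostly COX1, COX2 and COX3, asks whether complex I genes changed relative to them. On that scale 6 of the 7 were lower in T3Homo than in contWT, from -0.097 ± 0.027 (ND5, log2 ± SE, edgeR adjusted p = 0.00075) to -0.25 ± 0.026 (ND2, edgeR adjusted p = 1.27e-20), where 18.5% of all genes were called lower. ND6 had -0.20 ± 0.11 (log2 ± SE) and did not pass (edgeR adjusted p = 0.094). The genes in the sum did not move alike. With TMM scaling COX1 was at -0.38 on the log2 scale, inside the range of the 7 complex I genes. COX2 was at -0.105 and COX3 at -0.13, both outside that range. The lower values are thus relative to the sum of the 6 genes, and not to each of them.

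contHomo against contWT compares untreated TRα(-/-) with untreated wild type by the column labels, and the T3 response of wild type by the titles. Here 6 of the 7 complex I genes fell, where 28.5% of all genes were called lower. The changes were -17.8% for ND2, -17.3% for ND4L, -15.3% for ND4, -10.8% for both ND3 and ND1, and -8.18% for ND5. ND6, at -0.016 ± 0.10 on the log2 scale (SE, edgeR adjusted p = 0.91), had overlapping libraries, while the other 6 genes had none, as for 57.6% of all genes. The ND6 value turned positive without contWT replicate 1 or 3, without contHomo replicate 3, with DESeq2 and on the mitochondrial scale described above. Among the 6 other mitochondrial protein genes COX3 rose by 10.3%, COX2 (1.99%) did not pass and 4 fell. COX1 fell by 15.5%, inside the range of the 6 complex I genes. Relative to those 6 genes, the same 6 complex I genes were lower, from -0.076 ± 0.027 (ND5, log2 ± SE, edgeR adjusted p = 0.013) to -0.24 ± 0.026 (ND2, edgeR adjusted p = 5.46e-18), where 22.3% of all genes were. No member reached 2-fold, against 5.97% of all genes.

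T3WT against contWT is the T3 response of wild type by the column labels, and the loss of TRα without T3 by the titles. With TMM scaling ND1, ND4L, ND4 and ND5 rose, where 41.5% of all genes were called higher, and ND2 fell, where 37.0% were called lower. ND4L rose by 24.7%, ND4 by 24.3%, ND5 by 24.1% and ND1 by 12.3%. ND2 fell by 5.90%, or -0.088 ± 0.019 on the log2 scale (SE, edgeR adjusted p = 2.99e-05), but at total-count scaling it rose, at 0.31 ± 0.018. ND3 was at -0.022 ± 0.023 (log2 ± SE, edgeR adjusted p = 0.38) and likewise turned to 0.37 ± 0.022 at total-count scaling. With the RLE factors of edgeR ND3 was called lower, at -0.053 ± 0.023 (log2 ± SE). ND6, at 0.17 ± 0.094 (edgeR adjusted p = 0.089), did not pass, although its groups did not overlap. The groups did not overlap for 5 of the 7 genes and for 78.9% of all genes.

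All 7 genes rose at total-count scaling, where 69.2% of all genes were called higher and the all-gene median moved on the log2 scale from 0.053 to 0.45. Relative to the all-gene median of the TMM-scaled fit, ND4L, ND4 and ND5 stood at 0.27, 0.26 and 0.26 on the log2 scale, ND1 at 0.11, ND6 at 0.12, ND3 at -0.075 and ND2 at -0.14. The 6 other mitochondrial protein genes all rose with TMM scaling, with a median of 0.30 against 0.17 for the 7. Relative to them, ND1, ND2 and ND3 were lower, at -0.096 ± 0.024, -0.35 ± 0.026 and -0.29 ± 0.029 (log2 ± SE), where 52.2% of all genes were called lower. ND4L, ND4 and ND5 were at 0.054 ± 0.037, 0.051 ± 0.025 and 0.049 ± 0.027 and did not pass. None of the 7 reached 2-fold, against 18.0% of all genes.

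T3Homo against contHomo is the T3 response of TRα(-/-) intestine by the column labels, and the loss of TRα with T3 by the titles. All 7 complex I genes fell, where 31.1% of all genes were called lower. ND6 fell by 24.4%, or -0.40 ± 0.10 on the log2 scale (SE, edgeR adjusted p = 0.00045). The changes were -16.7% for ND3, -13.2% for ND1, -12.8% for ND5, -12.5% for ND2, -9.48% for ND4 and -6.79% for ND4L. The ND6 value ranged from -0.51 to -0.32 as single libraries were left out. ND4L (edgeR adjusted p = 0.011) was no longer called without contHomo replicate 1 (log2 fold change -0.073), without T3Homo replicate 2 (-0.073) or at total-count scaling (-0.055). The libraries of ND4L overlapped, and those of the other 6 did not, as for 65.6% of all genes. Relative to the 6 other mitochondrial protein genes, ND3 was the 1 gene called, lower at -0.086 ± 0.030 (log2 ± SE, edgeR adjusted p = 0.0081), where 15.4% of all genes were called lower. ND6 had a larger change on that scale, at -0.23 ± 0.11, and narrowly did not pass (edgeR adjusted p = 0.055). No member reached 2-fold, against 6.60% of all genes.

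T3Homo against T3WT is the loss of TRα with T3 by the column labels, and the T3 response of TRα(-/-) by the titles. All 7 were lower in T3Homo, where 38.9% of all genes were called lower. ND4 differed by -0.70 ± 0.019 on the log2 scale (SE, edgeR adjusted p = 2.36e-55). The differences were -38.3% for ND4, -38.2% for ND4L, -35.5% for ND5, -33.6% for ND6, -31.1% for ND1, -24.6% for ND3 and -23.6% for ND2. No libraries overlapped for the 7 genes, as for 76.9% of all genes. None of the 7 passed 2-fold with TMM scaling, against 16.1% of all genes. The 6 other mitochondrial protein genes were all called lower too, by 22.9% (COX3) to 33.6% (CYTB). Their median log2 fold change was -0.51, where that of the 7 was -0.59. At total-count scaling, with an all-gene median of -0.35 and 66.4% of all genes called lower, ND4L and ND4 were both at -1.03. The share of all genes past 2-fold was not counted at total-count scaling. Relative to the 6 other mitochondrial protein genes, ND1, ND4L, ND4 and ND5 were lower, where 17.7% of all genes were called lower. Their values ran from -0.049 ± 0.024 (ND1, log2 ± SE, edgeR adjusted p = 0.049) to -0.21 ± 0.025 (ND4). ND6, at -0.10 ± 0.10, did not pass (edgeR adjusted p = 0.34). ND2 and ND3 were higher on that scale, at 0.10 ± 0.026 and 0.081 ± 0.030, where 66.7% were called higher.

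**Figure D3:**
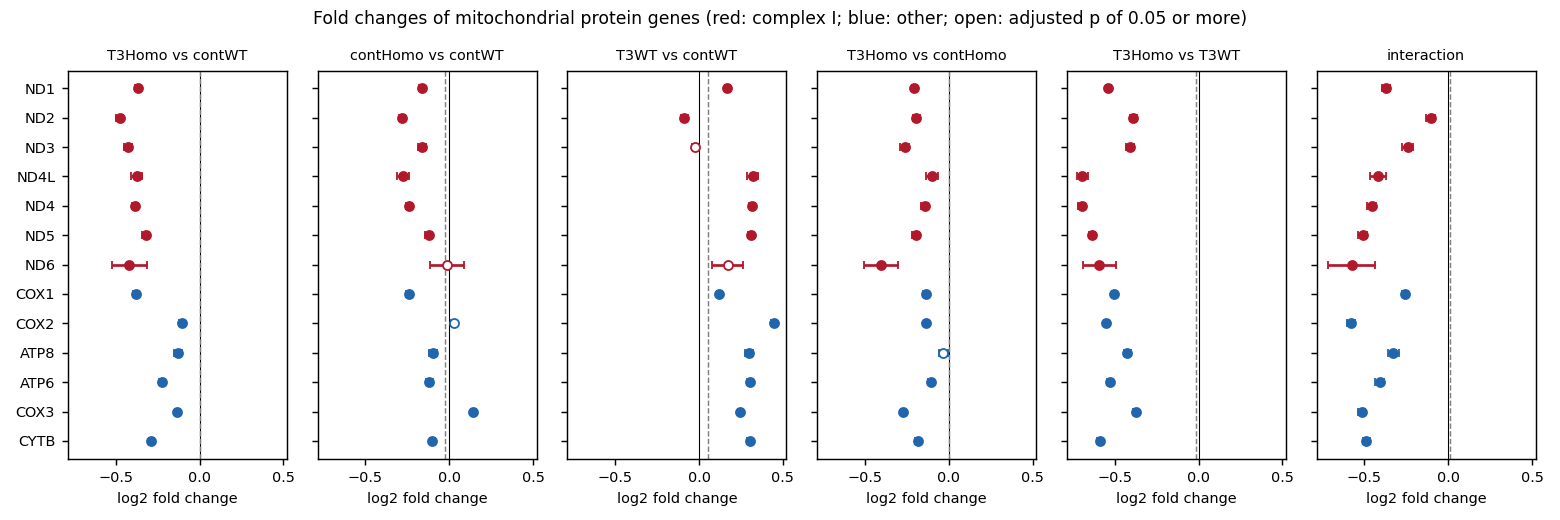
Log2 fold change with its SE (TMM scaling) of the 7 complex I genes (red) and 6 other mitochondrial protein genes (blue) in the 5 group comparisons and the interaction. Open symbols did not pass at an adjusted p of 0.05, and the dashed line marks the median of all genes tested. In T3WT against contWT the complex I genes spread from -0.088 (ND2) to 0.32 (ND4L), while in T3Homo against contWT they lie between -0.48 and -0.32.

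The interaction, the change from contHomo to T3Homo minus the change from contWT to T3WT, has the same value under both readings of the labels. It was negative for all 7 complex I genes, where 30.3% of all genes were called with a negative value. ND6 had -0.57 ± 0.14 (log2 ± SE, edgeR adjusted p = 0.00021), ND5 -0.51 ± 0.027, ND4 -0.46 ± 0.027, ND4L -0.42 ± 0.048, ND1 -0.37 ± 0.022 and ND3 -0.24 ± 0.033. ND2 had the value closest to 0, at -0.11 ± 0.028 (edgeR adjusted p = 0.00064), and did not pass with DESeq2, at -0.099 (adjusted p = 0.074). The median over the 7 was -0.42, that of the 6 other mitochondrial protein genes -0.45 and that of all genes 0.011. None of the 7 passed 2-fold, against 15.6% of all genes. At total-count scaling all 7 stayed negative, from -0.45 ± 0.027 (ND2, log2 ± SE) and -0.59 ± 0.033 (ND3) to -0.92 ± 0.14 (ND6), with ND1 at -0.72 ± 0.021, where the all-gene median was -0.34 and 58.3% of all genes were called with a negative value. Relative to the 6 other mitochondrial protein genes, ND2 and ND3 had a positive interaction, at 0.34 ± 0.037 (edgeR adjusted p = 7.31e-19) and 0.20 ± 0.042 (edgeR adjusted p = 4.12e-06), where 61.5% of all genes were called with a positive value. The other 5 did not pass on that scale.

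**Figure D4:**
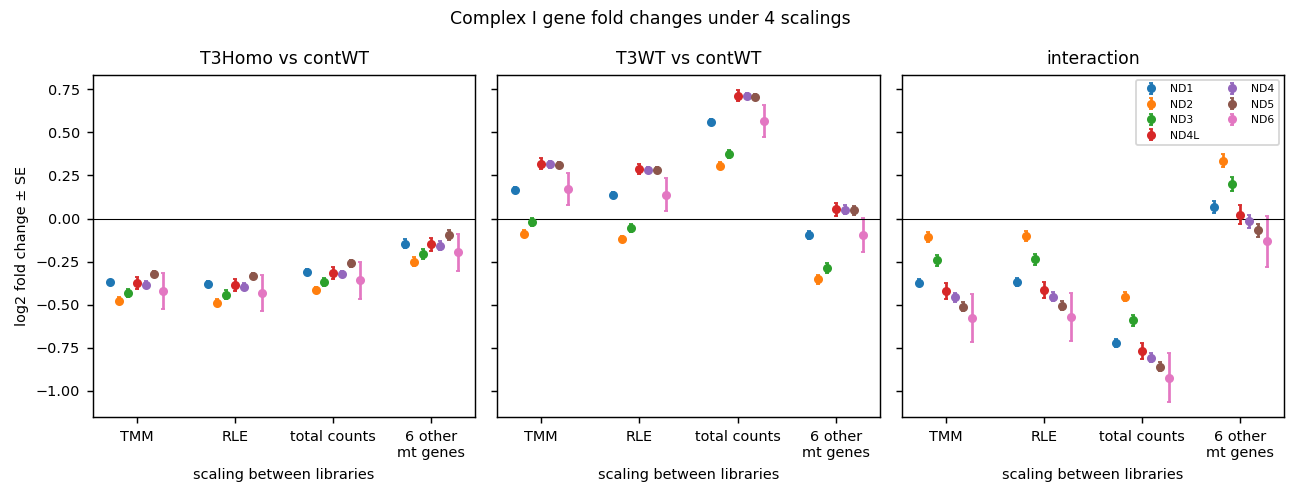
Log2 fold change with its SE of each complex I gene under 4 scalings between libraries: TMM, RLE, total counts, and the summed counts of the 6 other mitochondrial protein genes. In T3Homo against contWT all 7 genes stay below 0 under each scaling, and in T3WT against contWT the values of ND2 run from -0.35 to 0.31.

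Shares of counts within a library need no scaling between libraries. The 7 complex I genes took 10.9 ± 0.0447% of the counts of the 13 mitochondrial protein genes in contWT, 10.3 ± 0.101% in T3WT, 9.99 ± 0.0644% in contHomo and 9.89 ± 0.0421% in T3Homo. The contWT libraries (10.89 to 10.98%) were above all others, and contHomo and T3Homo overlapped. The share of COX1 among the 13 was also highest in contWT, at 33.3 ± 0.130% against 29.4 ± 0.266% in contHomo. From contWT to contHomo the share of COX2 went from 23.5% to 25.0% and that of COX3 from 23.5% to 27.1%.

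Among the 7, the share of ND2 was 15.03 ± 0.304% of counts in contWT, 14.1 ± 0.273% in contHomo, 12.6 ± 0.0867% for T3WT and 14.1 ± 0.207% in T3Homo. The share of ND3 was 6.24 ± 0.116%, 6.36 ± 0.267%, 5.46 ± 0.0380% and 6.06 ± 0.0968% in the same order. For both genes the T3WT libraries were below those of the other 3 groups. The shares of ND4, ND4L and ND5 were highest in T3WT. ND4 took 20.8 ± 0.159% there and 18.2 ± 0.272% to 18.8 ± 0.460% in the other groups. ND4L took 2.36 ± 0.0572% there and 2.02 ± 0.0663% to 2.15 ± 0.0912% elsewhere. ND5 took 11.7 ± 0.0871% there, against 10.6 ± 0.0844% (contWT), 11.1 ± 0.154% (contHomo) and 11.1 ± 0.0858% (T3Homo). ND1 took 47.0 ± 0.0980% for T3WT and 48.0 ± 0.271% in contHomo, and contHomo overlapped T3Homo alone. ND6 took 0.173 ± 0.00759% in T3Homo and 0.201 ± 0.0285% in contHomo, and all its groups overlapped.

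**Figure D5:**
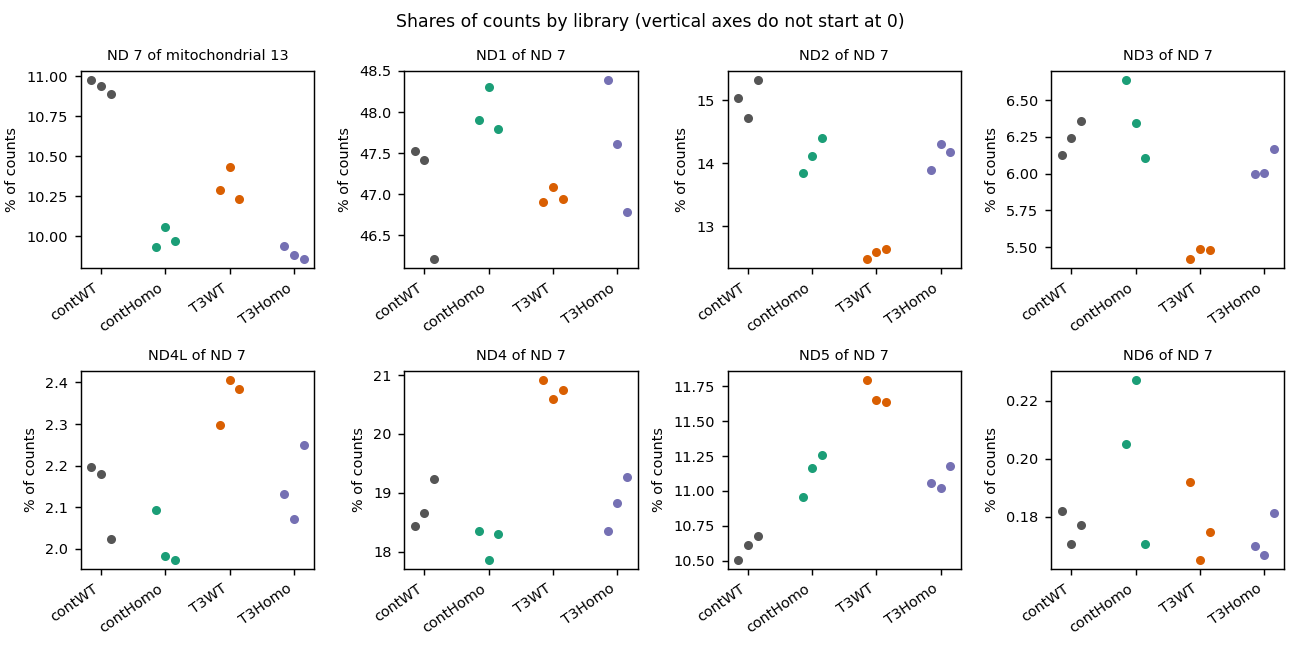
Share of counts per library: the 7 complex I genes among the 13 mitochondrial protein genes (first panel) and each gene among the 7. Vertical axes do not start at 0. The T3WT libraries hold the lowest shares of ND2 (12.5 to 12.6%) and ND3 (5.42 to 5.49%) and the highest of ND4, ND4L and ND5.

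Pairs of complex I genes, neighbouring or not, differed in how closely they moved together. The ratio of ND4 to ND4L per kb, overlapping genes that are read from a common transcript in mammals, was 1.90 ± 0.129 for contWT, 1.94 ± 0.0540 for contHomo, 1.89 ± 0.0606 for T3WT and 1.89 ± 0.0634 in T3Homo, with overlapping libraries. The ratio of ND1 to ND2, the first 2 protein genes of the genome, was 3.35 ± 0.114 for contWT, 3.64 ± 0.0771 for contHomo, 4.0002 ± 0.0252 for T3WT and 3.61 ± 0.104 in T3Homo. The contWT and T3WT libraries were at the ends of that range, and contHomo overlapped T3Homo. The ratio of ND4 to ND2 was 0.939 ± 0.0163 for contWT, 0.968 ± 0.0248 for contHomo, 1.24 ± 0.0169 for T3WT and 1.002 ± 0.0181 in T3Homo, and T3WT was above all other libraries.

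The 22 mitochondrial rows under 150 bases, which the files do not name, held 15182 counts over all libraries, against 1013735 in the 7 complex I genes. Those that abut a complex I gene held between 1 count (after ND4) and 987 counts (after ND1) over the 12 libraries. Outside the mitochondrial genome, the genes whose centred log2 CPM over the 12 libraries lay closest to the mean profile of the 7 were ENSXETG00000007948 and ENSXETG00000011136, at root mean square distances of 0.042 and 0.043. The first was at 30.8 ± 0.240 CPM for contWT, 26.2 ± 1.25 for contHomo, 34.1 ± 0.806 for T3WT and 23.0 ± 1.49 in T3Homo. The second was at 16.9 ± 0.549, 14.3 ± 0.283, 17.8 ± 0.272 and 12.4 ± 0.152 CPM. By the same distance, the members themselves lay between 0.027 (ND1) and 0.11 (ND6) from their mean profile. COX1 (0.034) and CYTB (0.053) lay closer to it than every member but ND1, and COX2 (0.12) and COX3 (0.13) lay farther than all members. The profile was thus not particular to complex I genes.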

How the data were processed

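RNA was sequenced from 12 libraries, 3 technical libraries for each of 4 pools, grouped by the column labels of the count table. The deposited values are whole-number read counts per gene, not normalized, per the file headers. STAR 2.5.3a and featureCounts 1.4.6-p3 are named, per the submitters' processing notes. How strand and multiply aligned reads were handled, which annotation was used and on which build is not given in the sources used here. The labels give no batch. All pairs of libraries of a pool differed by more than sampling noise (chi-square per gene 1.26 to 1.88, largest p = 1.09e-78) and were counted separately.

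Genes were filtered with filterByExpr (13172 kept) and tested by edgeR 4.0.16 (quasi-likelihood F test, R 4.3.3), with TMM factors, 1 coefficient per group and Benjamini-Hochberg adjustment over all genes tested. SE is the log2 fold change divided by the square root of the F statistic. Alternatives were RLE, total-count, nuclear-gene and mitochondrial scaling, no filter, DESeq2 1.42.0, the compared groups alone, a replicate block and leaving out each library. Tested on simulated counts for T3Homo vs contWT, 90% of the 50 genes with a 1.2-fold change were found, with 14 false calls among 12962 genes. At that fold, recovery was 90% for T3WT vs contWT, 84% for contHomo vs contWT, 82% for T3Homo vs contHomo, 80% for T3Homo vs T3WT and 62% for the interaction. The simulated counts had 1 common dispersion for all genes, and only well-counted genes were changed, all raised in 1 group. In the data many more genes were called and TMM factors differed between groups, so these rates need not hold there. The shares of counts are described without the planned permutation p, since the genes were chosen with results known. The members, lists and contrasts were all chosen with earlier results of these data known. All 7 members are named in every comparison, and the 2 nuclear genes were taken by smallest distance to the mean member profile.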

Additional observations from a re-analysis of the deposited data

Results flagged for a closer look

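The change from contHomo to T3Homo differed from the change from contWT to T3WT for all 7 complex I genes by a test of that difference in edgeR with TMM scaling. On the log2 scale the difference was -0.37 for ND1, -0.11 for ND2, -0.24 for ND3, -0.42 for ND4L, -0.46 for ND4, -0.51 for ND5 and -0.57 for ND6. Of all genes tested, 30.3% were called with a negative difference. ND2 did not pass with DESeq2, at -0.099 (adjusted p = 0.074). Scaled to the 6 other mitochondrial protein genes, 0 of the 7 were called negative, where 14.1% of all genes were. ND2 and ND3 were called positive on that scale, at 0.34 and 0.20. Of all genes, 61.5% were called positive there, and the all-gene median was 0.45. The TMM factor moved with T3WT, at 1.21 against 0.921 to 0.962 in the other groups, and its part in the result was not tested apart from the scalings given here. Groups of 3 libraries were not tested for outlying libraries.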

How the results depend on the processing

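The replicate numbers gave no sign of pairing: deviations from the group means correlated between -0.024 and 0.024 for libraries with the same number. The replicate block left the counts of called genes as they were (7 lower in the interaction, where 30.4% of all genes were). Nuclear-gene scaling, no filter and fits of the compared groups alone also left each call of the 7 genes in place. With TMM scaling, a call that also requires a 2-fold change left 0 of the 7 genes in each comparison. Of all genes, 5.97% (contHomo vs contWT) to 18.0% (T3WT vs contWT) passed that call.

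In T3WT vs contWT, 4 genes were higher, where 41.5% of all genes were called higher, and 1 lower, where 37.0% were. RLE factors gave 2 lower, where 38.9% of all genes were called lower. Total-count scaling gave 7 higher, where 69.2% of all genes were called higher, and 0 lower, with ND2 at 0.31 and ND3 at 0.37. Of all calls, 81.3% were then higher in place of 52.9%. That share went from 48.9% to 19.2% in T3Homo vs T3WT and from 53.0% to 19.1% in the interaction. Scaling to the 6 other mitochondrial protein genes, which measures change relative to them by construction, gave 0 higher and 3 lower in T3WT vs contWT. Of all genes, 52.2% were called lower there. ND1 was called there at -0.096, and ND6 was not called at -0.093. That scaling gave 1 lower in T3Homo vs contHomo (ND3, -0.086), where 15.4% of all genes were called lower. ND4L (0.078) and ND4 (0.034) were positive and not called. In T3Homo vs T3WT that scaling gave 2 higher (ND2 0.10, ND3 0.081), where 66.7% of all genes were called higher. It gave 4 lower, where 17.7% were. In the interaction it gave 2 higher (ND2 0.34, ND3 0.20), where 61.5% of all genes were called higher, and 0 lower. ND1 (0.069) and ND4L (0.024) were positive and not called. ND6 in contHomo vs contWT was at 0.030 there and at 0.0021 with DESeq2. On that scale the share of higher calls was 33.2% in T3WT vs contWT, 76.3% in T3Homo vs contHomo, 56.0% in contHomo vs contWT, 79.0% in T3Homo vs T3WT, 74.3% in T3Homo vs contWT and 81.4% in the interaction. With TMM it was 50.9% in T3Homo vs contHomo, 46.2% in contHomo vs contWT and 50.2% in T3Homo vs contWT. With DESeq2, 6 of the 7 passed in the interaction, all negative, where 26.2% of all genes were called with a negative value.

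Leaving out single libraries moved ND6 in contHomo vs contWT between -0.098 and 0.089, and ND3 in T3WT vs contWT between -0.051 and 0.0018. Of the 7 genes, 6 to 7 were lower in T3Homo vs contHomo, where 28.6% to 30.9% of all genes were called lower. The gap between the highest and lowest group mean, in points of share among the 7, ranged from 0.78 to 1.03 for ND3, from 0.87 to 1.19 for ND1 and from 0.015 to 0.044 for ND6. The highest group became contWT for ND3 without contHomo replicate 1 (0.78) and T3Homo for ND1 without T3Homo replicate 3 (1.02), and the ND6 gap was 0.044 without contHomo replicate 3. Depth limits ND6 most, with a counting error of 7.02% to 8.97% per library. For the others it is 2.63% or less.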

Other observations

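The 2 longest mitochondrial rows outside the 13 protein genes lie upstream of ND1 and carry no name in the files. The row of 1635 bases, ending at 2716, was at 4794 ± 211 CPM for contWT, 5796 ± 127 for contHomo, 4727 ± 74.9 for T3WT and 4323 ± 34.4 in T3Homo (SD, n = 3). With TMM scaling it rose by 20.9% in contHomo vs contWT, where 6 of the 7 complex I genes fell. It did not pass in T3WT vs contWT (-0.020 ± 0.016, log2 ± SE, edgeR adjusted p = 0.23). As a share of all library counts, which takes no TMM factor, this row was highest in T3WT, at 0.573 ± 0.00764%. That share was 0.442 ± 0.0163% in contWT, without overlap, and 0.540 ± 0.0111% in contHomo. Lower values were called, as for the complex I genes, in T3Homo vs contHomo (log2 fold change -0.42), T3Homo vs T3WT (-0.13) and T3Homo vs contWT (-0.15), and its interaction was -0.40. The row of 943 bases, from 69 to 1011, was at 564 ± 11.9 CPM for contWT, 515 ± 0.863 for contHomo, 576 ± 11.6 for T3WT and 455 ± 6.62 in T3Homo. It was called lower in contHomo vs contWT (log2 fold change -0.13), T3Homo vs contWT (-0.31), T3Homo vs contHomo (-0.18) and T3Homo vs T3WT (-0.34), with an interaction of -0.21. In T3WT vs contWT it was at 0.031 ± 0.016 (SE) and did not pass (edgeR adjusted p = 0.073).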
